A study of Mus musculus with 369 samples.

Results

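The cells described here are the 168 quality-passed single microglia of wild-type mice, of 334 such cells in the series. They were chosen by their labels as the 78 cells of 1 plate sorted on low CD45 and on CD11b, called unselected here, and the 90 cells of another plate that were also positive for Gpnmb and Clec7a, called gated. Gpnmb and Clec7a are thus the genes that chose the cells, and their values describe the sort. All animals were male mice on the C57BL/6J background at postnatal day 7, no allele is stated for the wild-type mice, and whole brains were used. The same pair of gates was sorted from Trem2 knockout brains, and those 166 cells (90 unselected and 76 gated) serve as a second, separately plated pair. The labels do not say how the knockout was made or which cells came from which animal.

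Microglia are macrophages that live in the brain tissue itself. In the first postnatal week some of them, gathered in developing white matter, carry a programme of Gpnmb, Clec7a, Igf1 and Spp1 that resembles the state described around amyloid plaques, and surface Gpnmb and Clec7a can be used to sort them. Gpnmb is a transmembrane glycoprotein of the endolysosomal system, Clec7a is the beta-glucan receptor Dectin-1, Igf1 is a growth factor and Spp1 is the secreted protein osteopontin. The genes reported below lie outside the usual microglial lists (disease-associated, homeostatic, lysosomal, lipid, ribosomal, cell cycle, interferon, inflammatory and similar genes, 739 in all), which were set aside.

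Each well held 1 cell, profiled with Smart-seq2, in which full-length cDNA is amplified and no molecular identifiers mark the original RNA molecules. Gene counts per cell ran from 184903 to 1025631 (median 494746) in unselected cells and from 198374 to 911880 (median 630968) in gated cells. A level is given in CPM, a gene's share of a group's counts scaled to a library of fixed size, from the counts summed over a group's cells, with a 95% exact Poisson interval. Detection is the share of cells with at least 1 count after every cell was thinned at random to 100000 counts, with a 95% Clopper-Pearson interval. The Poisson interval covers counting error only, and can be too narrow even for that, since amplified reads of 1 cell are not independent. The Clopper-Pearson interval treats the cells of a plate as independent draws and does not cover animals or plates. Each group is 1 plate with no animal named, so it counts as 1 sample, no test is possible and no p-value is given. The gate and the plate cannot be told apart within wild type. After thinning, unselected cells showed 980 to 5689 genes (median 2281) and gated cells 527 to 4829 (median 2627). All 9 microglia markers were detected in both groups.

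Values for Gpnmb and Clec7a describe the sort that chose the cells and are not a check of it. Gpnmb was detected in 24.4% of unselected and 68.9% of gated cells, and Clec7a in 21.8% and 68.9%. Igf1 went from 33.3% to 84.4% and Spp1 from 39.7% to 87.8% of cells. In the unselected cells 1 cell held 74.9% of all Gpnmb counts, so the Gpnmb level there, 216 CPM, is mostly that of 1 cell.

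Across the 9879 genes with at least 5 CPM in either group, more passed the 2-fold rule of level than the 25-point rule of detection. The 2 rules are not on 1 scale, and a gene found in few cells can hardly move by 25 points. By level, 14.3% of genes were at least 2-fold higher and 20.5% at least 2-fold lower in gated cells, with the same direction by the mean CPM per cell. Without the highest cell of each gene in each group, 1067 of these 1417 higher and 1476 of these 2028 lower genes were still called. By detection, 1.36% (134 genes) were found in at least 25 percentage points more of the gated cells, and 0.344% (34 genes) in at least 25 points fewer. The median gene differed by -0.155 in log2 level and by 0.513 points in detection. Of the 134 genes higher by detection, 100 lay outside the usual lists, and of the 34 lower genes 18 did. Among the 134, 93 were also at least 2-fold higher by level, and among the 34, 31 were at least 2-fold lower. No gene was called in opposite directions by the 2 measures. Of all calls by level 41.1% were higher, and 66.7% with counts scaled to the spike-in RNAs, a scaling that moves the median of all genes to 0.32.

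**Figure D1:**
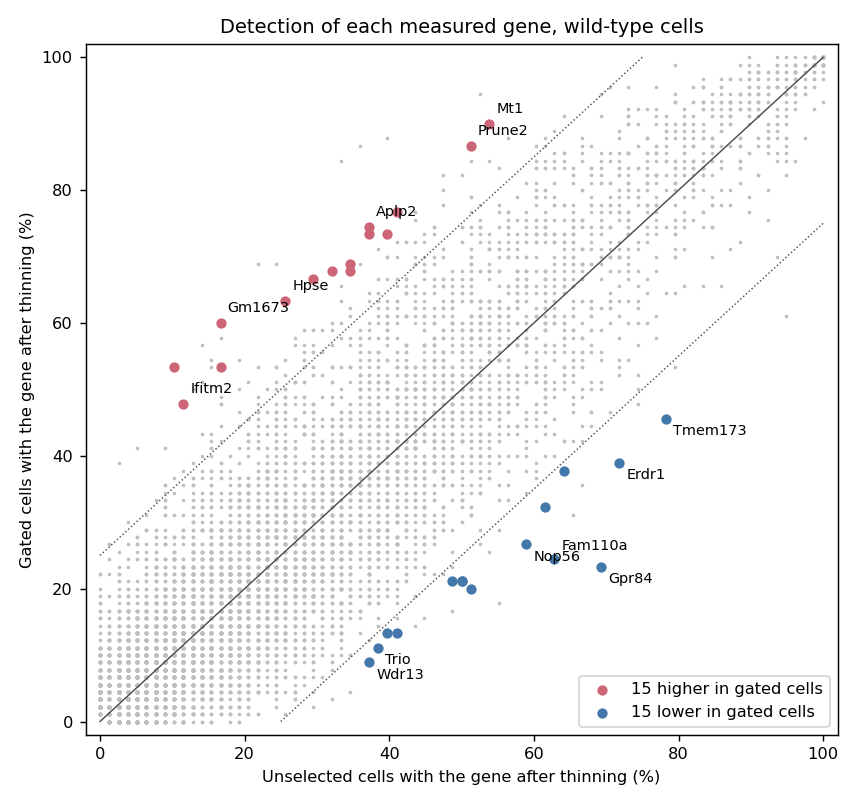
Each point is 1 measured gene, placed by the share of the 78 unselected (horizontal axis, %) and of the 90 gated wild-type cells (vertical axis, %) in which it was detected after thinning to 100000 counts. The solid line marks equal shares and the dotted lines a difference of 25 percentage points; the 15 named higher genes sit 33.2 to 43.3 points above equality, and the 15 named lower genes 26.3 to 45.9 points under it.

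The 15 genes with the largest gains in detection outside the usual lists, among those with at least 20 CPM in the higher group, included Gm1673, Hpse, Aplp2, Aprt, Eif4ebp1, Ifitm2, Mt1, Scp2, Aes, Calm3, Prune2, Rap2b, Dab2 and H2afj. They were detected in 10.3% to 53.8% of unselected cells and in 47.8% to 90.0% of gated cells. The gains ran from 33.2 to 43.3 points. They encode proteins of unlike kinds: a heparan sulfate-cleaving enzyme, an adaptor for endocytosis, a purine salvage enzyme, a repressor of cap-dependent translation, a metal-binding protein, a small GTPase and a histone among them. Since they were picked for this difference, their size is a description, and H2afj, the last gene inside the rule, and Slc6a6, the first outside it, had the same gain of 33.2 points.

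Among the membrane and secreted members, Hpse (chr5:100679484-100719716), heparanase, which cleaves the heparan sulfate chains of matrix and cell surface proteoglycans, was detected in 25.6% (16.4% to 36.8%) of unselected and 63.3% (52.5% to 73.2%) of gated cells, at 58.1 CPM (55.8 to 60.6) and 328 CPM (323 to 332). Unselected cells ran from 0 over a median of 0 to 2212 CPM and gated cells from 0 over a median of 67.9 to 5771 CPM. The groups overlapped, and most unselected cells had no Hpse count while most gated cells did. Of the 15 genes it was among those that were also higher within the cells that had it: the median over detecting cells was 55 CPM in unselected and 510 CPM in gated cells. Aplp2 (chr9:31149557-31211815), a relative of the amyloid precursor protein, went from 37.2% to 74.4% of cells and from 133 CPM (129 to 136) to 353 CPM (348 to 358), with a per-cell median of 0 in unselected and 297 CPM in gated cells. Its highest cell was an unselected one, at 1724 CPM against 1571 CPM, so the ranges coincided while the medians lay apart.

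A further pair of members act at membranes. Dab2 (chr15:6299788-6440712), a clathrin adaptor that loads receptors into coated pits, was detected in 39.7% of unselected and 73.3% of gated cells, at 126 CPM and 410 CPM. Rap2b (chr3:61361638-61368430), a Ras-like small GTPase, went from 34.6% to 68.9% of cells and from 38.5 CPM to 176 CPM. In gated cells the highest single cell held 13.6% of all Rap2b counts and 11.8% of all Dab2 counts, the 2 largest such shares among the 15 genes.

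Other members act in metabolism and regulation. Aprt, the enzyme that salvages adenine into AMP, went from 29.5% to 66.7% of cells and from 45.1 to 107 CPM. Scp2, a carrier of sterols and fatty acyl chains into peroxisomes, went from 37.2% to 73.3% and from 46.4 to 115 CPM. Eif4ebp1 encodes 4E-BP1, a target of mTOR that holds back cap-dependent translation; it was detected in 16.7% of unselected and 53.3% of gated cells, but its median in detecting cells was 130 CPM in unselected and 90 CPM in gated cells. Mt1, the zinc- and copper-binding metallothionein 1, was the most widely detected of the 15, at 53.8% and 90.0%, with 75.7 CPM (73 to 78.5) and 152 CPM (149 to 155). Calm3, one of 3 calmodulin genes, was at 43.1 and 79.6 CPM, and Mt1 and Calm3 were the members of the 15 that missed 2-fold by level. Ifitm2, an interferon-induced membrane protein, went from 11.5% to 47.8% of cells, and since the Ifitm genes are close copies its counts are uncertain. Gm1673 went from 16.7% to 60%, Aes, a Groucho-family corepressor, from 32.1% to 67.8%, Prune2 from 51.3% to 86.7% and H2afj, a histone H2A variant, from 34.6% to 67.8%.

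For all 15 genes the intervals of the shares did not overlap. The difference came more from how many cells had the gene than from how much each detecting cell had. The genes were ranked by their difference in share, so both patterns follow at least in part from that choice. The log2 ratio of the shares had a median of 1.00 over the 15, and the log2 ratio of the mean level in detecting cells a median of 0.36, with 13 genes above 0 and 2 under it. Thinning is 1 random draw. With the share expected over all draws, 9 of the 15 stayed among the 15 largest gains, the other members ranked no worse than 40, and all 15 still gained 28.8 points or more. Exons of another gene overlap 4 of the 15, Ifitm2, Rap2b, Dab2 and H2afj.

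**Figure D2:**
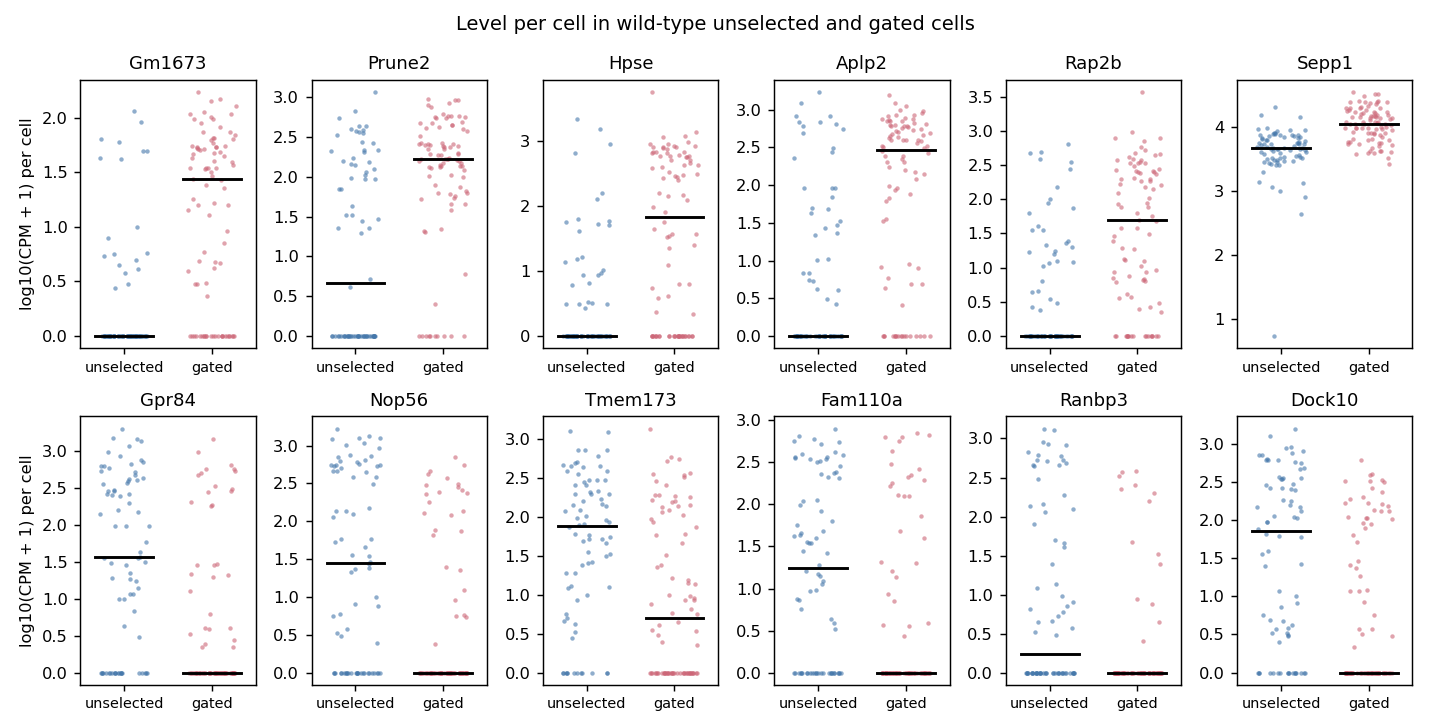
Each point is 1 wild-type cell, on a vertical axis of log10(CPM + 1), with the black bar at the group median; the upper row shows 5 of the named higher genes and Sepp1, and the lower row 6 of the named lower genes, in the 78 unselected and 90 gated cells. For the 5 higher genes the gated median lies above the unselected one, which is 0 except for Prune2, Sepp1 is in almost every cell of both groups, and every panel shows overlapping groups.

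The 15 genes with the largest losses of detection included Gpr84, Fam110a, Erdr1, Tmem173, Nop56, Fchsd2, Mtap1s, Fbxl6, Wdr13, Ranbp3, Trio, Sec16a and Dock10. They were detected in 37.2% to 78.2% of unselected and 8.89% to 45.6% of gated cells, a loss of 26.3 to 45.9 points. All 15 were at least 2-fold lower by level. Dock10 was the last gene inside the rule at -26.3 points, and Fscn1, which encodes the actin-bundling protein fascin, was the first outside it at -26.2 points.

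A cell surface receptor led this set. Gpr84 (chr15:103308235-103310612), a receptor for medium-chain fatty acids on myeloid cells, was detected in 54 of 78 unselected (69.2%, 57.8% to 79.2%) and 21 of 90 gated cells (23.3%, 15.1% to 33.4%), at 274 CPM (269 to 280) and 85.5 CPM (83 to 88). Unselected cells ran from 0 over a median of 35.6 to 2025 CPM, and gated cells from 0 over a median of 0 to 1461 CPM. Gpr84 was thus found in fewer gated cells, but in the cells that had it the median was 210 CPM in unselected and 280 CPM in gated cells. Tmem173 encodes STING, the adaptor of cytosolic DNA sensing; it was the most widely detected of the 15 in unselected cells, at 78.2%, against 45.6% in gated cells, with 188 and 82.2 CPM.

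Regulators of the cytoskeleton and of traffic formed a second group. Dock10 (chr1:80501073-80758527), an exchange factor for small GTPases of the cytoskeleton, went from 236 CPM (231 to 241) to 57.3 CPM (55.3 to 59.3) and from 64.1% to 37.8% of cells. Trio, another such exchange factor, went from 66.7 to 28.5 CPM and from 38.5% to 10 of 90 cells, and 1 gated cell held 47.8% of its gated counts. Fchsd2, an F-BAR protein of endocytosis, went from 61.5% to 32.2%, Mtap1s, a microtubule-binding protein, from 50.0% to 21.1%, and Sec16a, which organises the exit sites of the endoplasmic reticulum, from 39.7% to 13.3% of cells.

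The nuclear and nucleolar members included the 2 largest differences in level, those of Wdr13 and Ranbp3. Nop56 (chr2:130274430-130279313), a core protein of the box C/D small nucleolar ribonucleoproteins that guide methylation of ribosomal RNA, was at 295 CPM (290 to 301) in unselected and 64.8 CPM (62.7 to 67) in gated cells. It was detected in 59% and 26.7% of cells, and its median in detecting cells was 425 and 180 CPM. Its exons overlap Idh3b and small nucleolar RNA genes, so some counts may be theirs. Wdr13 (chrX:8123301-8132892), a WD-repeat protein, was at 77.3 CPM in unselected and 7.33 CPM in gated cells, 9.41-fold lower, and was found in 8 of 90 gated cells. Ranbp3, a Ran-binding cofactor of nuclear export, was at 165 and 22.5 CPM, 7.09-fold lower. Fbxl6, an F-box protein of ubiquitin ligases, was at 148 and 37.2 CPM, and Fam110a at 127 and 58.8 CPM. Erdr1 was at 38.3 and 11 CPM, has near copies and was not placed on the mm10 annotation used here.

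The intervals of the shares were apart for all 15 lower genes. For 13 of them the share differed by more, as a log2 ratio, than the level in detecting cells. These genes too were ranked by their difference in share, so both patterns follow at least in part from that choice. The median log2 ratio was -1.24 for the shares and -0.72 for the level in detecting cells. With the share expected over all thinning draws, 12 of the 15 stayed among the 15 largest losses and 12 lost 25 points or more. By detection all 15 were below 0 in each other wild-type setting run, but fewer kept a loss of 25 points: 10 when cells were thinned to 50000 counts, 9 in 53 cells of each group matched on detected genes, and 3 when at least 5 counts were asked for after thinning.

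Cells with cell cycle RNA were fewer in the gated group, and the detection of the lower genes differed less without them. At least 5 of 27 cell cycle genes were detected in 39 of 78 unselected and 27 of 90 gated cells. Leaving those cells out also widened the gap in detected genes, to medians of 1728 in unselected and 2453 in gated cells from 2281 and 2627. In the cells left, 1 of the 15 lower genes lost 25 points or more, the median loss was 16.5 points while the median of all genes was a gain of 4.64 points, and all 15 were still below 0. By level 12 of the 15 were still at least 2-fold lower, and Trio, at 0.15 in log2, was not lower. The same step left the 15 higher genes with gains of 26.5 to 55.2 points and all of them at least 2-fold higher. The parts of the cell cycle and of the number of detected genes in these differences were not tested.

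Markers of border-associated macrophages, the macrophages of the meninges and vessels, were also higher in gated cells. Of the 13 measured markers, 12 were at least 2-fold higher, and their summed level was 846 CPM in unselected and 2145 CPM in gated cells, with per-cell medians of 712 and 992 CPM and highest cells of 3558 and 19134 CPM. Pf4 was detected in 1.28% of unselected and 26.7% of gated cells, Folr2 in 15.4% and 42.2%, and Ms4a7 in 1.28% and 22.2%. Mrc1 was in 55.1% and 60%, and Lyve1, Cd163 and F13a1 in 0% of unselected and in 9, 6 and 10 of 90 gated cells (0 of 78 is compatible with up to 4.62% of cells). At least 3 of these markers were detected in 10 unselected and 39 gated cells. Without those cells 12 of the 15 higher genes still gained 25 points or more, with a median gain of 33.3 points, and Dab2 was left with a gain of 20.1 points and a log2 level of 0.53 in place of 1.69. Among the 15 lower genes 12 still lost 25 points or more. The 9 microglia markers summed to 46763 CPM in unselected and 31839 CPM in gated cells. Of these markers 3 were at least 2-fold lower and 0 higher, where 20.5% of all genes were lower and 14.3% higher. Red blood cell markers were at 128 and 437 CPM, with a median of 0 in both groups and the highest gated cell at 30895 CPM, and 5 cells of each group had 3 or more of them. Monocyte markers were at 1.54 and 1.40 CPM.

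Among the 76 genes outside the usual lists found in at least 90% of cells of both groups, where detection can hardly differ, the level per cell was compared directly. Sepp1 (chr15:3268547-3280508), which encodes the secreted selenium carrier selenoprotein P, had the largest difference, at 5189 CPM (5166 to 5212) in unselected and 12427 CPM (12398 to 12457) in gated cells. Unselected cells ran from 4.55 over a median of 4690 to 20263 CPM, and gated cells from 2635 over a median of 11228 to 34859 CPM. The groups overlapped, but the gated median lay above the upper quartile of unselected cells, 6812 CPM. Its exons overlap Ccdc152, so some counts may belong to that gene. Without the cells with 3 or more border-associated macrophage markers Sepp1 was at 4889 and 11843 CPM. Sat1, the enzyme that acetylates polyamines for export, was at 639 and 1090 CPM, and Akr1a1, an aldehyde reductase, at 726 and 1157 CPM. Sdcbp, which encodes the scaffold syntenin of exosome formation, was at 985 and 1380 CPM. Sh3bgrl3, Gm2a, the activator protein of ganglioside breakdown, Lars2, the mitochondrial leucyl-tRNA synthetase, and Eif1, a factor of start codon choice, completed the 8 highest by per-cell median. For Eif1 the summed level went the other way, from 171 to 158 CPM, so it has no clear direction.

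The 8 lowest of these widely expressed genes were Rbm39, Srsf2, Serinc3, Adap2, Clic1, Tpm3, Ckb and Hnrnpa2b1. Srsf2, Rbm39 and Hnrnpa2b1 bind RNA in splicing. Srsf2 was at 544 CPM (537 to 552) and 257 CPM (253 to 262), Rbm39 at 347 and 214 CPM, and Hnrnpa2b1 at 527 and 349 CPM. Per-cell medians for Srsf2 were 378 and 196 CPM, with the highest cells at 2501 and 1248 CPM. Serinc3, a multipass membrane protein, was at 561 and 312 CPM, Adap2, a GTPase-activating protein for Arf6, at 605 and 377 CPM, and Ckb, the brain form of creatine kinase, at 1495 and 1073 CPM. Clic1 and Tpm3 were 1.38-fold and 1.41-fold lower. With spike-in scaling 7 of these 8 were still lower. Srsf2 was the member of the 8 to reach 2-fold, and its exons overlap Mettl23 and Mfsd11.

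At the other end, AI607873 and C2 were the 2 genes with no count in any unselected cell and detection in at least 20% of gated cells. AI607873, an interferon-inducible gene of the Ifi200 family, was found in 20 of 90 gated cells (22.2%, 14.1% to 32.2%) at 39.7 CPM, and its highest cell was at 680 CPM. C2, complement component 2, was found in 18 of 90 gated cells (20.0%, 12.3% to 29.8%) at 53.7 CPM. With 0 of 78 cells, up to 4.62% of unselected cells could still have carried either RNA at this depth, by the 95% Clopper-Pearson bound.

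Genes were then read in 27 lists outside the usual microglial themes, with members counted against the 14.3% of all genes that were at least 2-fold higher and the 20.5% that were lower. In the xenobiotic and aldehyde metabolism list, whose share of higher genes lay above that background, 10 of 34 measured genes were at least 2-fold higher and 1 lower, with a median log2 of 0.17 against -0.155 for all genes. Of the 10, Cbr2 is also a border-associated macrophage marker, and without the cells with 3 or more such markers 8 of 33 measured genes were higher and 3 lower. Ephx1, microsomal epoxide hydrolase, was at 2.95 CPM (2.44 to 3.54) and 105 CPM (103 to 108) and went from 8.97% to 41.1% of cells; 1 cell held 68.7% of its unselected counts. Aldh2, the mitochondrial aldehyde dehydrogenase, was at 107 and 241 CPM, Gsto1, a glutathione transferase, at 32.3 and 77.8 CPM, and Cyp4v3, a fatty acid hydroxylase, at 53.6 and 125 CPM. Of autophagy genes 5 of 38 were higher and 0 lower, among them Map1lc3a, one of the LC3 proteins of the autophagosome membrane, at 25.3 and 63.9 CPM, and Pink1, the kinase that marks damaged mitochondria, at 34.8 and 103 CPM. That is a share close to the background of 14.3%, with none lower where the background is 20.5%. Endosome and SNARE genes had 4 of 41 higher, a share under the background, and 0 lower. Sorl1, a sorting receptor that returns cargo from endosomes, was at 1.62 and 39.0 CPM and in 2.56% and 25.6% of cells.

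Nuclear receptors, circadian and basic helix-loop-helix factors had the highest list median, 0.32, with 11 of 40 genes higher and 4 lower. Most members were at low levels, with a median detection of 8.97% of unselected and 15.6% of gated cells, and none gained 25 points. Mlx, the partner of the glucose-sensing factors of the Mondo family, was at 13.6 and 59.6 CPM, but 1 cell held 54.2% of its unselected counts. In the phosphoinositide and mTOR list 8 of 45 genes were higher and 6 lower. The higher ones included Lamtor2, of the lysosomal Ragulator complex, which went from 51.3% to 73.3% of cells, Rragc, of the Rag GTPases that sense amino acids there, at 57.1 and 127 CPM, and Sesn1, an amino acid sensor, at 87.3 and 183 CPM. In sphingolipid and phospholipid metabolism 7 of 44 genes were higher and 8 lower. With spike-in scaling 10 of 45 were higher and 3 lower, where 2409 of all 9940 measured genes were higher and 1202 lower. Pld3, an endolysosomal nuclease of the phospholipase D family, was at 437 and 1812 CPM. Pla2g7, which inactivates platelet-activating factor, was at 16.9 and 101 CPM.

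Lists of nuclear RNA and DNA handling leaned lower. Of 46 DNA repair genes 21 were at least 2-fold lower and 1 higher, with a median log2 of -0.91, and 14 of the 38 members outside the usual lists were lower. Neil3, a DNA glycosylase of cycling cells, was at 48 and 4.19 CPM, Brca2, of homologous recombination, at 37.3 and 14.3 CPM, and Apex1, the main apurinic endonuclease, at 83.2 and 25.5 CPM. Without cells with 5 or more cell cycle genes 16 of 40 measured DNA repair genes were lower and 11 higher. In those cells 2076 of all 9661 measured genes were lower and 2308 higher. Of 46 splicing genes 8 were lower and 0 higher, a share close to the background of 20.5%, and the median was -0.60. Srsf1 was at 117 and 47.8 CPM, Tra2a at 53.8 and 19.7 CPM, and without the cycling cells 8 of 46 were lower and 3 higher. Of 49 chromatin genes 13 were lower, a share somewhat above the background of 20.5%, and 2 were higher. The lower ones included the Polycomb members Ezh2, Eed and Suz12, the deacetylases Hdac1, Hdac2 and Hdac4 and the maintenance methyltransferase Dnmt1. Without the cycling cells 13 of 49 were lower and 7 higher. With counts scaled to the spike-in RNAs the median of all genes was 0.32, that of the chromatin list 0.08, of splicing -0.12 and of DNA repair -0.46, so the chromatin median lay above 0 and under that of all genes. The counts were then 6 chromatin genes lower and 5 higher, and 2 splicing genes lower and 1 higher. For DNA repair 15 genes were lower and 3 higher. Of all 9940 measured genes 1202 were lower and 2409 higher with this scaling.

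Among other G protein coupled receptors 5 of 29 were lower and 3 higher, but 4 of the 29 lost 25 points or more, where the background was 0.344%, among them Gpr84 and Gpr165. Gpr165 was at 226 CPM (221 to 231) and 25.9 CPM (24.6 to 27.3) and went from 55.1% to 17.8% of cells. Gpr165 is also on a usual list. Of 39 regulators of cytoskeletal small GTPases 10 were lower and 5 higher, and of 18 eicosanoid genes 4 were lower and 0 higher. Of 38 glycosylation genes 9 were lower and 7 higher. In these lists the share of lower genes was close to or somewhat above the 20.5% of all genes. For the receptors it was somewhat under that background. With spike-in scaling 2409 of all 9940 measured genes were higher and 1202 lower, so the balance turned for all genes together. It turned too for receptors (6 higher, 4 lower), small GTPase regulators (7 higher, 3 lower) and glycosylation genes (10 higher, 5 lower). The 41 genes of the ubiquitin proteasome list gave 0 at 2-fold in either direction, with a median log2 of -0.06 and a median gain of 6.84 points in detection. Of the 48 mitochondrial translation genes 3 were higher and 3 lower.

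**Figure D3:**
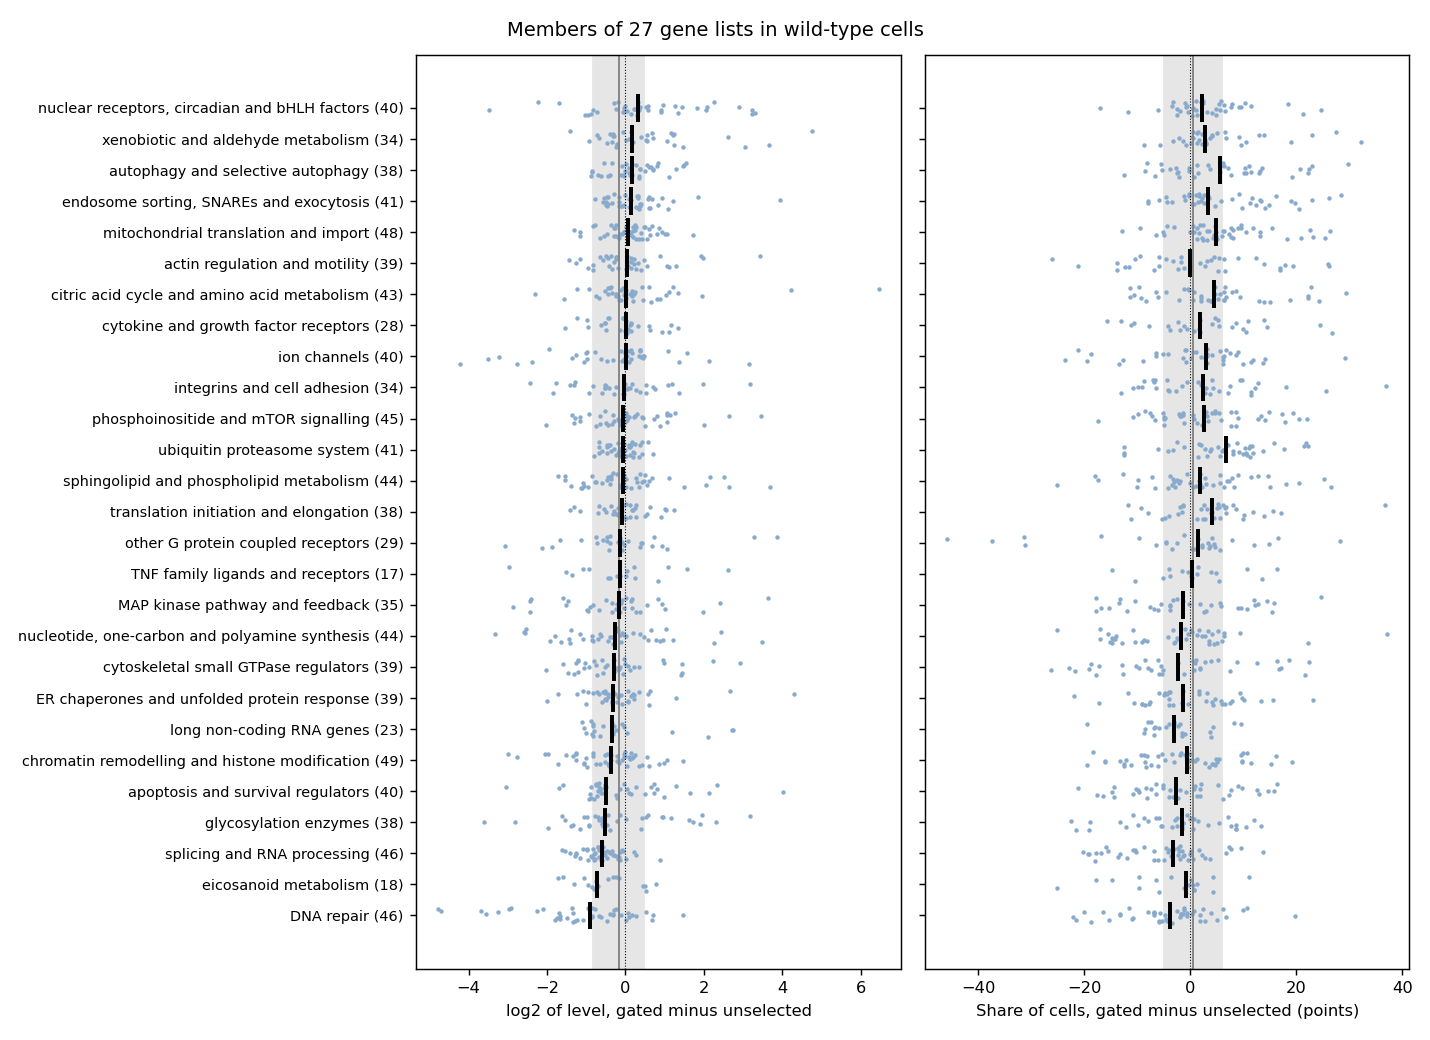
Each dot is 1 measured member of a gene list (number of measured members in brackets), placed by its log2 level (left) or its share of cells in percentage points (right), gated minus unselected, and black bars are list medians. The grey band spans the middle quartiles of all 9879 genes and the grey line is their median; DNA repair, eicosanoid and splicing medians lie lowest at -0.91, -0.71 and -0.60, and that of nuclear receptors highest at 0.32.

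How the named genes fell together was then read cell by cell. Of the 15 higher genes, unselected cells had 0 to 12 with a median of 4, and gated cells 2 to 15 with a median of 11. Of the 15 lower genes, unselected cells had 0 to 15 with a median of 8, and gated cells 0 to 8 with a median of 3. More higher than lower genes were found in 7 of 78 unselected cells (8.97%, 3.68% to 17.6%) and in 84 of 90 gated cells (93.3%, 86.1% to 97.5%). These genes were chosen on the same cells, so this separation describes the choice. Within each group the number of higher genes went with the number of all genes detected (Spearman correlation 0.73 over 78 and 0.72 over 90 cells, which share a plate).

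Surface protein chose the gated cells, but not every gated cell had the RNA. Both Gpnmb and Clec7a RNA were detected in 47 gated cells, 1 of them in 30 and neither in 13. The 47 cells had a median of 12 of the 15 higher genes, the 30 cells 10 and the 13 cells 6. Their medians of all detected genes fell in the same order, at 3113, 2558.5 and 1657, and the part of this in the difference was not tested. In the unselected group 51 cells had neither RNA. They had a median of 3 of the 15 genes and a median of 1891 detected genes, against 6 and 1657 in the 13 gated cells. The 9 unselected cells with both RNAs had a median of 10 higher genes, close to gated cells, but also 10 lower genes, against 3 in gated cells with both, and 3908 detected genes against 3113.

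**Figure D4:**
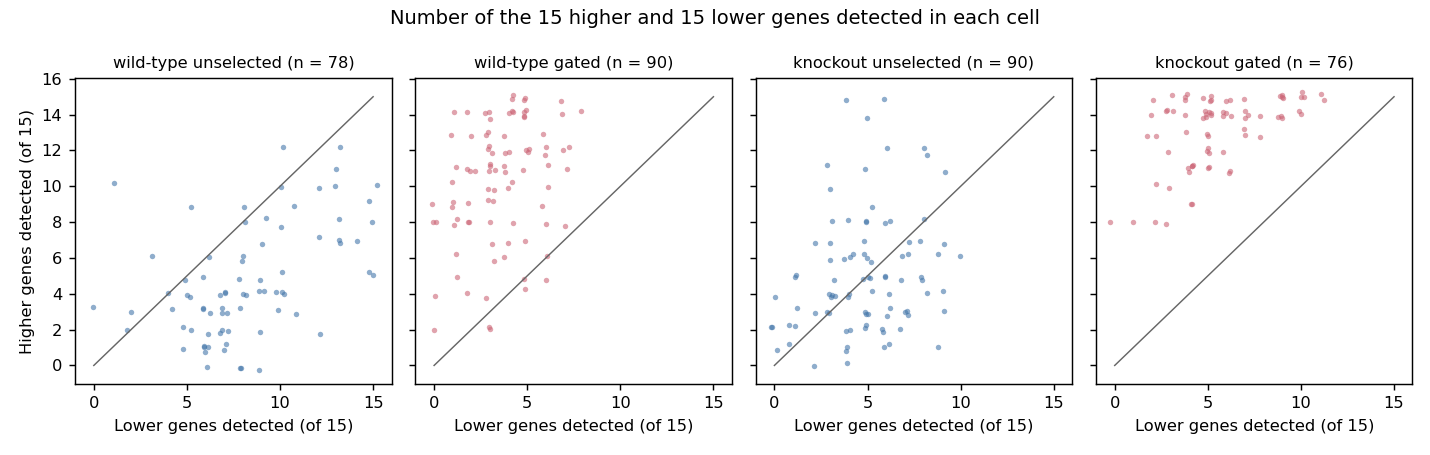
Each point is 1 cell, placed by how many of the 15 lower genes (horizontal axis) and of the 15 higher genes (vertical axis) were detected after thinning, with small random shifts so that points do not hide each other, and the line marks equal numbers. Above the line lie 7 of 78 unselected and 84 of 90 gated cells in wild type, against 42 of 90 and 76 of 76 in the knockout.

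The Trem2 knockout plates played no part in choosing the 30 genes, and they give the same contrast in other cells. There, gated cells showed many more genes than unselected cells (median 3457 against 1952 after thinning), so that 23.1% of genes were higher by detection and 0.0911% lower, while 11.6% were higher and 22.6% lower by level. All 15 higher genes gained 25 points or more, with gains of 33.5 to 75.5 points and a median of 49.7, against a median of 13.2 points for all genes. By level 10 of the 15 were at least 2-fold higher and 15 of 15 were above 0. Hpse went from 15.6% to 90.8% of cells and from 31.2 to 456 CPM and Gm1673 from 10.0% to 85.5%. Scp2, by contrast, went from 45.6% to 85.5% of cells at 68.8 and 69 CPM.

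The 15 lower genes kept their direction in the knockout by level but not by detection. By level 14 of 15 were below 0 and 11 at least 2-fold lower, with a median log2 of -1.58. Detection was below 0 for 5 of 15, with a median of 2.22 points, where 89.5% of all genes were above 0. In detecting cells the level was lower for 15 of the 15 lower genes and for 6 of the 15 higher genes. The share of all genes with a lower level in detecting cells is not given here. Tmem173 went from 62.2% to 35.5% of cells and from 219 to 18.4 CPM, and Gpr84 from 46.7% to 48.7% of cells but from 256 to 77.6 CPM. In 27 knockout cells of each gate matched on the number of detected genes, the median of all genes was 0 points. The 15 higher genes then had a median gain of 29.6 points. Of them 9 gained 25 points or more and 14 were above 0, with Dab2 at 0. The 15 lower genes had a median loss of 11.11 points, and 11 of 15 were below 0. Sec16a went the other way by level, from 27.7 to 37.3 CPM in the knockout against 106 to 14.9 CPM in wild type. More higher than lower genes were found in 42 of 90 unselected cells of the knockout and in 76 of 76 gated ones.

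Of the wider set of 100 genes higher by detection outside the usual lists, 100 were above 0 by detection in the knockout, where 89.5% of all genes were, and 89 were above 0 by level, where 37.8% of all genes were. Of the 18 lower genes 17 were below 0 by level, where 62.2% of all genes were, but by detection 6 were below 0, 1 of them by 25 points, with a median of 4.53 points. In the matched knockout cells 82 of the 100 were above 0 by detection, where 42.9% of all genes were. There 14 of the 18 were below 0 by detection, where 45.1% of all genes were. The 8 widely expressed genes that were lower in wild type, Srsf2 among them at 737 and 330 CPM, were all below 0 in the knockout by level, and of the 8 higher ones 6 were above 0. Sepp1 was at 6076 and 14069 CPM, and C2 at 5.20 and 145 CPM.

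**Figure D5:**
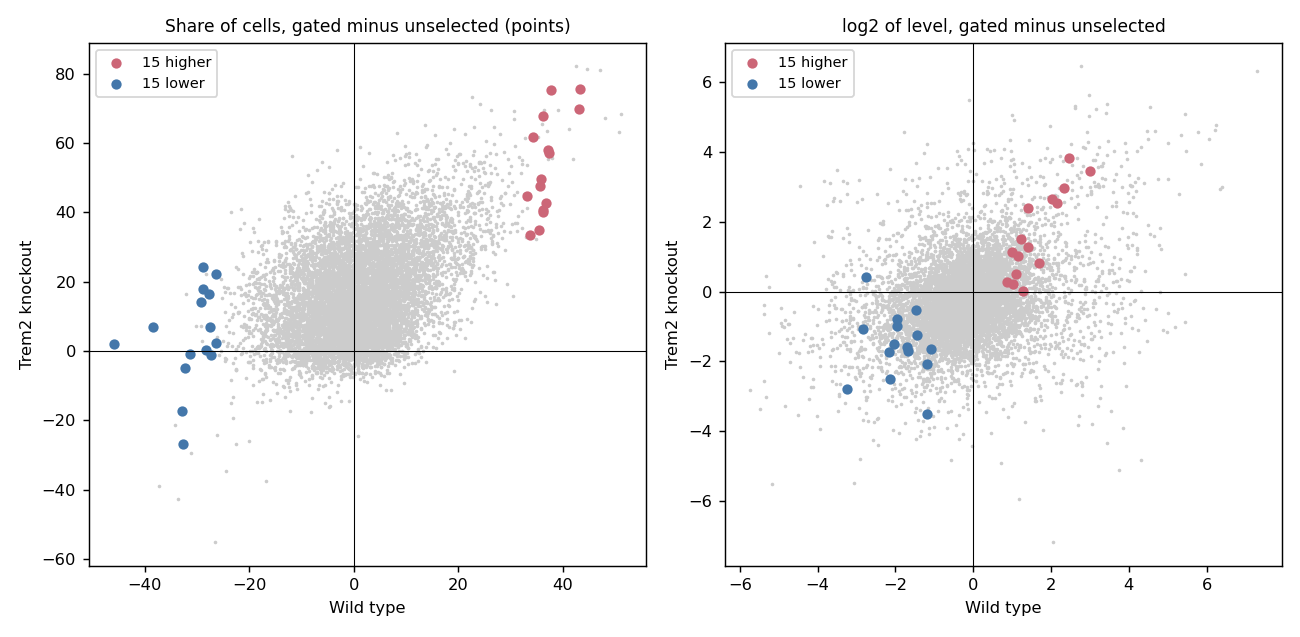
Grey points are genes measured in both genotypes, placed by the difference of gated minus unselected cells in wild type (horizontal axis) and Trem2 knockout (vertical axis), in percentage points of detection (left) and log2 level (right). The 15 higher genes lie above 0 on both axes of both panels, and the 15 lower genes are spread from -26.7 to 24.2 points in the knockout by detection while 14 of them lie below 0 by level.

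The start sites of the 30 genes were read for 3 short motifs. RefSeq promoter windows (250 bases before to 50 after the start, GRCm38.p6, the same assembly as mm10) matched 12 of the 15 higher and 9 of the 15 lower genes by symbol, some with several windows. CACGTG, the E-box letters bound by factors of the Mitf and Tfe family, was in 0 of 13 and 0 of 12 windows of these genes, against 7.15% of all 32851 windows and 10.2% of those of measured genes. TGANTCA, the AP-1 letters, was in 1 of 13 windows of the higher genes, that of Aprt, against 7.81% of all windows and 4.77% of those of measured genes. GAGGAAGT, letters bound by the myeloid factor PU.1, was in 1 of 12 windows of the lower genes, 1 of 3 of Fam110a, against 3.20% of all windows and 3.28% of those of measured genes. Both strands were searched. The 2 windows that hold a match are shown with the match in capitals, 5′ to 3′ on the gene's strand, for Aprt at chr8:122576858-122577157 (minus strand) and for Fam110a at chr2:151980170-151980469 (minus strand). A match is a description of the letters and not a bound site.
Aprt: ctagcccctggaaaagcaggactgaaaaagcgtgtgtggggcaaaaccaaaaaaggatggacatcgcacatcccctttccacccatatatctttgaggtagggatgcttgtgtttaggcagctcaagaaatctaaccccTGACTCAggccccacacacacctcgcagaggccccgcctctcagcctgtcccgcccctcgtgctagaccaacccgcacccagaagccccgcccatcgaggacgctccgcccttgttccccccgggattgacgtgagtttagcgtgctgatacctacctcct
Fam110a: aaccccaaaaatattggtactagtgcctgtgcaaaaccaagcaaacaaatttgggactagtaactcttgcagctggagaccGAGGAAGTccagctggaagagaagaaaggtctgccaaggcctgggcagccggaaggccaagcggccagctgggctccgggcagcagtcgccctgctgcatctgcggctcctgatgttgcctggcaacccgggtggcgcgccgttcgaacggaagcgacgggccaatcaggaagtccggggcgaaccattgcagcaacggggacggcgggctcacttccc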

How the data were processed

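Raw counts by gene, as the authors deposited them, came in 1 table covering 369 single microglia. HTSeq, Picard, STAR 2.5.3a and Trim Galore 0.4.3 were used with the mm10 build, per the submitters' processing notes. Annotation and strand use, not given in the sources used here, bear on genes that overlap. It lists 23337 genes and 92 spike-in RNAs, which took 3.56% of counts and stayed out of library sizes. Only cells marked in the labels as passing 3 quality criteria were kept; in wild type this removed 12 unselected and 3 gated cells, and in the knockout 3 and 17. Gene counts of passing cells ran from 157653 to 1051282. No doublets were called, since each well was sorted to hold 1 cell. No passing columns were identical.

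CPM come from counts summed over a group's cells, relative to that group's total gene count. A gene was measured at 5 CPM or more in either group. Differences are log2 ratios of CPM plus a pseudocount of 1, which understates those of low genes. A gene counts as called at 2-fold where mean CPM per cell had the same sign, or at 25 percentage points of detection after thinning to 100000 counts, a depth below which 0 cells lay. These are rules of size and not tests. The rule of level was tested on simulated data, drawn for each group from 1 profile with Poisson noise. That simulation did not test the rule of detection and did not hold the uneven counts of single cells. Named genes lay outside the usual lists and had 20 CPM or more on the higher side, and for those named by detection 1 direction by summed counts, mean CPM and detection. They were the 15 highest and 15 lowest by detection, the 8 highest and 8 lowest by per-cell median among genes in 90% of cells of both groups (where the median could differ in sign from summed counts or detection), genes with no count in 1 group and 20% detection in the other, and up to 4 members of each list by detection. Chromatin members and genes just outside a limit were named after their values were seen. A few qualifying genes go unreported here but stay in the counts and ranges. The genes, lists and tests were chosen with earlier results of these data known. Of 1814 listed symbols 1806 were matched, 29 by an older symbol. Coordinates are from GENCODE M21. Alternatives were other scalings (edgeR 4.0.16 TMM, DESeq2 1.42.0 median of ratios, spike-ins), other minimums, pseudocounts and thinning depths, and left-out or matched cells. Python 3.11.15 and R 4.3.3 were used.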

Additional observations from a re-analysis of the deposited data

Results flagged for a closer look

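Sec16a, which organises exit sites of the endoplasmic reticulum, differed in direction between genotypes. It was 2.76 lower in log2 level in gated than in unselected wild-type cells (log2 difference -2.76) and 0.42 higher in the knockout, and each value rests on 1 plate per gate, so the difference between genotypes was not tested.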

How the results depend on the processing

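No paired analysis was possible because each group is 1 plate and the replicate numbers only count its cells in order. For the same reason no group could be left out as a replicate. Of 1417 genes higher and 2028 lower by level, spike-in scaling gave 2409 and 1202, so that 66.7% of calls were higher in place of 41.1%, and it moved the median of all genes from -0.155 to 0.32. A minimum of 20 CPM gave 716 and 1270. Without cells with 5 or more cell cycle genes 2308 were higher, and 52.6% of calls. Of 134 genes higher and 34 lower by detection, 27 and 3 passed 35 points, and 407 and 3 passed 25 points without the cycling cells. The lower count was 90 without thinning, 14 at 5 counts or more after thinning and 67 in cells matched on detected genes. Of 27 lists, 16 had a median above that of all genes, and 9 without the cycling cells. In the knockout, 6 in place of 10 of the higher genes reached 2-fold by level in matched cells, and 11 and, without thinning, 3 in place of 5 of the lower genes were below 0 by detection. Trio reversed to a log2 level of 0.15 without the cycling cells, the 1 reversal among named levels; 348 other such values moved by more than their counting interval and 249 did not. Of the shares 35 moved and 205 did not, and of list medians 44 moved and 118 did not. The cause of these moves was not tested. The share expected over all thinning draws was an alternative chosen after seeing the data. Depth limits detection of genes at few counts per cell. The Poisson intervals of level do not cover the sampling of cells, animals or plates, and the intervals of shares do not cover animals or plates.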

Other observations

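Further genes outside the usual lists, named here after their values were seen, were found in more gated cells. Crip1, a small LIM-domain protein, was in 2.56% of unselected and 38.9% of gated wild-type cells, and at 17.8 CPM in gated cells it lay under the level that the naming rule asks for. Slc6a6, the taurine transporter, went from 51.3% to 84.4% of cells, Mif, a cytokine-like tautomerase, from 47.4% to 80%, Idh1, the cytosolic isocitrate dehydrogenase, from 29.5% to 58.9% and Slc11a1, the phagosomal metal transporter Nramp1, from 55.1% to 83.3%. Pla2g4a, the cytosolic phospholipase that frees arachidonic acid, went from 47.4% to 22.2%, and Stip1, a cochaperone that links Hsp70 and Hsp90, from 48.7% to 23.3%.

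In the list of citric acid cycle and amino acid genes 7 of 43 were at least 2-fold higher, a share close to the 14.3% of all genes. In the same list 3 were lower, a share under the 20.5% of all genes. The higher ones included Asl, argininosuccinate lyase, at 53.8 and 117 CPM and Aco1, the iron-responsive aconitase, at 27.4 and 71.1 CPM. Among ion channels 5 of 40 were higher and 9 lower, both shares close to those of all genes. Orai3, a store-operated calcium channel subunit, went from 14.1% to 43.3% of cells, and Trpc2 from 26.9% to 3.33%, where 1 cell held 94.9% of its gated counts. Itgax, the CD11c integrin chain, which is also on a usual list, went from 14.1% to 51.1% of cells and from 21.0 to 197 CPM.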
